A study of Mus musculus with 6 samples.

Results

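Mac1 is 1 of 4 macrophage clusters in a single-cell survey of the adult mouse heart, and it comprised the cells that the authors' deposited annotation names Mac1. It held 2841 of the 21706 annotated cells, against 1663 in Mac2, 460 in Mac3 and 2540 in Mac4. The study asked what an active YAP in cardiomyocytes does to the heart and used Drop-seq, in which single cells are captured in droplets with barcoded beads and their transcripts are counted by unique molecular identifiers (UMIs). All animals were adult, carried Myh6-MCM, a tamoxifen-inducible Cre driven in cardiomyocytes, and received tamoxifen. The Control hearts carried Myh6-MCM alone. The YAP5SA hearts were Yap5SA+/tg; Myh6-MCM and also expressed YAP5SA, a YAP that the Lats kinases cannot phosphorylate. Macrophages are therefore not the cells in which the Cre acts. Hearts were digested with collagenase on a Langendorff apparatus, and either the recombined cell fractions (tissue libraries) or the cardiomyocyte-enriched fraction alone (enriched libraries) was loaded.

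There were 6 libraries: Control enriched, Control tissue 2 and Control tissue 3, and YAP5SA tissue 1, YAP5SA tissue 2 and YAP5SA enriched. The last 3 names follow the deposited tables, whose numbers for the YAP5SA tissue libraries differ from those of the sample titles. Nothing in the labels says that libraries came from separate animals, so p-values measure at most the spread between these libraries. In the tests of single genes that spread is estimated with information shared across features. A small p there does not mean that the libraries of a genotype had similar levels.

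Cardiac macrophages comprise self-renewing resident cells, typically marked by Lyve1, Folr2 and Cd163, and cells that descend from circulating monocytes, typically marked by Ccr2. They clear dying cells, handle their lipids, and signal to fibroblasts, vessels and cardiomyocytes. The receptor Csf1r sustains the lineage, Cd68 is a lysosomal membrane protein of macrophages, and Fcer1g is the signalling chain of Fc receptors.

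The libraries with Mac1 cells were unequal, and the Control libraries stood apart from each other. Mac1 had 262 cells and 258742 UMIs in Control tissue 2, and 42 cells and 44795 UMIs in Control tissue 3. It had 676, 1189 and 672 cells in YAP5SA tissue 1, YAP5SA tissue 2 and YAP5SA enriched, with 859746, 1847980 and 770279 UMIs. A single UMI in Control tissue 3 was therefore worth 22.3 CPM, where CPM are UMIs scaled to the Mac1 total of the library and are the unit of every level below. Control tissue 3 and YAP5SA enriched also differed from the other 4 libraries in their gene annotation, since names of overlapping genes are joined only in those 4. The median share of mitochondrially encoded transcripts per Mac1 cell was 18.5% in Control tissue 3, 6.73% in YAP5SA enriched and between 2.58% and 3.01% in the other 3 libraries. Under an earlier numbering that the authors also deposited, 234 of the 262 Mac1 cells of Control tissue 2 were in cluster Mφ5 and 37 of the 42 of Control tissue 3 in cluster Mφ6, whereas Mφ2 held 522, 798 and 476 of the YAP5SA cells. Cluster Mo2 of that numbering held 6 and 0 Mac1 cells of Control tissue 2 and 3. It held 56, 312 and 127 of YAP5SA tissue 1, tissue 2 and enriched. The part of this make-up in the genotype differences below was not tested. Across the series 10 barcodes occurred in 2 libraries, and 4 Mac1 cells carried one of them. Yap1, whose endogenous and transgene reads cannot be told apart here, gave 14.8 to 17.9 CPM in the cardiomyocyte clusters of the 3 Control libraries and 24.6 to 52.9 CPM in those of the 3 YAP5SA libraries. In Mac1 it gave between 1 and 5 UMIs per library and was too low to test.

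Mac1 carried the lineage markers in every library. Fcer1g was at 3281 and 1027 CPM in Control tissue 2 and 3, and at 2108, 2395 and 1807 CPM in YAP5SA tissue 1, tissue 2 and enriched. Csf1r was at 402, 558, 614, 497 and 488 CPM in the same order, a narrow range in which the genotypes overlapped. Cd68 was at 1187, 246, 572, 516 and 584 CPM, with the highest and the lowest value both in Control. With every cell thinned to 750 UMIs, 52.4% to 89.3% of Mac1 cells per library had an Fcer1g UMI, against 1.23% to 4.72% of cardiomyocytes in clusters CM1 to CM3. Free RNA and doublets cannot be told apart as the source of such UMIs in cardiomyocytes, and this was not tested. Unthinned, the shares were 61.9% to 92.7% at median depths of 916 to 1326 UMIs in Mac1, and 4.04% to 16.5% at 1666 to 5045 UMIs in cardiomyocytes. All 14 genes of the macrophage marker list had UMIs in Mac1, and their summed level was 40171 and 17703 CPM in Control and 27747, 26671 and 26992 CPM in YAP5SA.

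Markers of other cell types were also present, unevenly. The 16 cardiomyocyte markers summed to 6149 and 10916 CPM in the Control libraries and to 3864, 1158 and 4301 CPM in the YAP5SA libraries. The 12 fibroblast markers summed to 808 CPM in Control tissue 2 and 11207 CPM in Control tissue 3, against 317 to 693 CPM in YAP5SA. The 10 endothelial markers summed to 630 and 1920 CPM in Control and to 587 to 654 CPM in YAP5SA. Dendritic cell markers (10 genes, Ccr7, Flt3 and Xcr1 at 0) reached 36.1 to 313 CPM and T or NK cell markers (12 genes, Cd3d, Cd3e and Cd8a at 0) 12.8 to 223 CPM, both highest in Control tissue 3. Neutrophil markers did not exceed 39.5 CPM, and erythroid markers reached 804 CPM in YAP5SA enriched alone. The part of these transcripts in the genotype differences below was not tested, beyond a limit on free RNA: a feature is said to lie below it where its mean level in Mac1 was more than 5-fold lower than in a non-macrophage cluster of at least 100 cells.

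Mac1 was found in all libraries but Control enriched, where 0 of 1405 cells allows a share of up to 0.214%, counting error only. Its share of all cells was 8.99% in Control tissue 2 and 1.35% in Control tissue 3, against 17.6%, 20.3% and 14.7% in YAP5SA tissue 1, tissue 2 and enriched. Every YAP5SA library was above every Control library. The means were 3.45 ± 4.85% (SD, n = 3) and 17.5 ± 2.79% (SD, n = 3), and a 2-sided exact permutation test within preparation gave p = 0.167, the smallest that its 12 arrangements allow. These shares also depend on which cell fractions were loaded and on how many cardiomyocytes were captured. Among cells outside the cardiomyocyte clusters, the means were 4.46% in Control and 19.8% in YAP5SA.

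**Figure D1:**
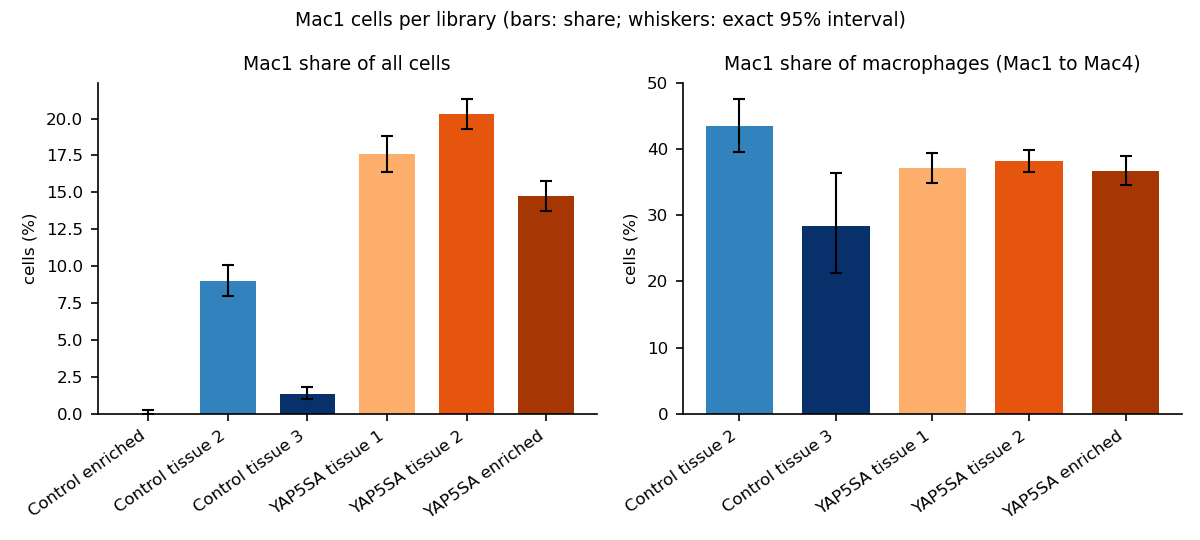
Bars give the share of Mac1 (percent of cells) among all cells in each of the 6 libraries (left) and among the macrophages of Mac1 to Mac4 in the 5 libraries that have them (right), with exact 95% binomial intervals as whiskers. The 3 YAP5SA bars stand at 14.7% to 20.3% of all cells, above all Control bars, and at 36.8% to 38.2% of macrophages, between the Control bars at 43.6% and 28.4%.

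Within the macrophages the share of Mac1 did not separate the genotypes. It was 43.6% and 28.4% in Control tissue 2 and 3, and 37.2%, 38.2% and 36.8% in the YAP5SA libraries, which lay between the Control values. The means differed by 1.41 percentage points (exact permutation p = 1.0, smallest possible 0.167). Without Control tissue 3 the difference turned to -6.20 points, and without Control tissue 2 it was 9.02 points.

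Spp1 was higher in Mac1 than in the other macrophage clusters outside Control tissue 3. Spp1 encodes osteopontin, a secreted matrix glycoprotein, and is read here from a feature that joins its name with an overlapping gene model (Gm42793). Its level in Mac1 was 17852 CPM in Control tissue 2, 22.3 CPM (1 UMI) in Control tissue 3, and 1773, 5991 and 6431 CPM in YAP5SA tissue 1, tissue 2 and enriched. In Mac2 of the same libraries it was 1917, 0, 317, 1058 and 723 CPM. In the monocyte cluster Mo it was 9705, 0, 1909, 5599 and 7872 CPM, above Mac1 in YAP5SA tissue 1 and YAP5SA enriched. Control tissue 3 lacked Spp1 in nearly all its Mac1 cells (1 of 42 with a UMI), whereas 83.6%, 39.1%, 66.6% and 55.4% of the cells of the other 4 libraries had one, and 83.3%, 31.8%, 58.1% and 51.7% at 750 UMIs. The share in cardiomyocytes at 750 UMIs was 0% to 6.49%. Over libraries, the mean log2 ratio of Mac1 to another cluster, computed with 10 CPM added to each level, was 2.60 ± 0.62 (SD, n = 5) against Mac2, 1.03 ± 0.56 (n = 4) against Mac3 and 1.44 ± 0.31 (n = 5) against Mac4. Mac3 of Control tissue 3, with 6 cells, was not used. The clusters were made from these same transcripts, so differences between clusters are described without a test.

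Of 3362 features with at least 50 CPM in Mac1, 22 (0.654%) were higher in Mac1 than in Mac2, Mac3 and Mac4 in every library, 2 of them below the free RNA limit. The 12 of these named here had only 1 to 6 UMIs each in Mac1 of Control tissue 3, so their description rests on the other 4 libraries. Beside Spp1 they included Fn1, the matrix protein fibronectin, with log2 ratios of 0.95, 0.45 and 1.21 against Mac2, Mac3 and Mac4. Cd9, a tetraspanin membrane protein, had ratios of 0.63, 0.77 and 0.57. Its level in Mac1 was 441, 134, 365, 405 and 391 CPM, lowest in Control tissue 3. Smaller ratios were found for Fam129a (0.57, 0.59 and 0.66) and for Gsto1, a glutathione transferase (0.47, 0.66 and 0.66). The rule also named Clns1a, Lat2, Noc2l, Mybbp1a, Srm, Tram1 and the joined feature Eif3j2-Gm27325, with mean log2 ratios of 0.28 to 1.07 over the 3 contrasts. Srm, the spermidine synthase, was at 61.8, 44.6, 109, 102 and 96.1 CPM, lowest in the Control libraries.

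Arginase and a monocyte receptor had the same contrast with Mac2 in all but 1 library. Arg1, which breaks down arginine, was at 216, 157, 765 and 512 CPM in Mac1 of Control tissue 2 and the 3 YAP5SA libraries, and at 20.8, 10.9, 58.2 and 33.0 CPM in Mac2. No Arg1 UMI was seen in either cluster of Control tissue 3, where 0 of 42 Mac1 cells leaves an exact upper bound of 8.41% on the share of cells with a detected Arg1 UMI at this depth, not on the share that express it. Ccr2, the receptor for monocyte chemoattractant, was at 383, 229, 475 and 441 CPM in Mac1 of those 4 libraries and at 13.8, 20.5, 59.4 and 17.3 CPM in Mac2. In the monocyte cluster Mo it was at 1142, 1289, 1217 and 1376 CPM, so Mac1 lay between Mac2 and the monocytes. Control tissue 3 had no Ccr2 UMI in Mac1 and 234 CPM in Mo. Neither gene was confined to Mac1 among the macrophage clusters. Mean levels over libraries were 208 CPM in Mac3 and 149 CPM in Mac4 for Ccr2, and 160 and 30.7 CPM for Arg1. Control tissue 3 is not in the means of Mac3.

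Resident macrophage genes were low in Mac1 against Mac2. Of 23 with UMIs, 21 were lower in Mac1 than in Mac2 in every library, with a median log2 ratio of -1.21, where 701 of all 19000 features with a UMI were lower in every library and the median was 0.0. Against Mac3, 9 were lower and 1 was higher in every library (median -0.40). Against Mac4, 2 were lower and 3 were higher (median 0.05), so the list as a whole did not set Mac1 apart from Mac4. Folr2, a folate receptor, was at 247, 268, 166, 118 and 170 CPM in Mac1 and at 803, 875, 648, 460 and 656 CPM in Mac2. Every Mac1 value was below every Mac2 value, and Folr2 was also lower than in Mac3 and Mac4 in every library. It was 1 of 7 such features among 3000 with at least 50 CPM in Mac2 and Mac3 (0.233%, 1 below the free RNA limit), with Mrc1, the mannose receptor, Ifi27l2a, Apip, Azi2 and 2810025M15Rik. Lyve1, a hyaluronan receptor, was at 30.9 and 670 CPM in Mac1 of Control tissue 2 and 3, and at 192, 86.6 and 257 CPM in the YAP5SA libraries. Its share of Mac1 cells was 2.29% in Control tissue 2 and 52.4% in Control tissue 3, against 8.16% to 16.1% in YAP5SA, so the Control libraries lay at both ends.

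Interferon genes separated Mac1 from Mac3, and mitotic genes separated it from Mac4. Of 28 interferon-response genes, 26 were lower in Mac1 than in Mac3 in every library, with a median log2 ratio of -2.27, where 714 of the 19000 features were. Cxcl10, an interferon-induced chemokine, was at 0 to 25.6 CPM in Mac1 and 327 to 459 CPM in Mac3. Of 52 G2/M genes, 48 were lower than in Mac4 (median -2.78, against 1078 of the 19000), and the proliferation marker Mki67 was at 22.3 to 80.3 CPM in Mac1 and 789 to 1292 CPM in Mac4. Genes of the unfolded protein response were higher in Mac1 than in Mac2 in every library for 8 of 16 (median 0.15), against 318 of 3362 features of at least 50 CPM. Lysosomal genes were higher than in Mac4 for 13 of 25 (median 0.31), against 335 of those 3362 features.

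**Figure D2:**
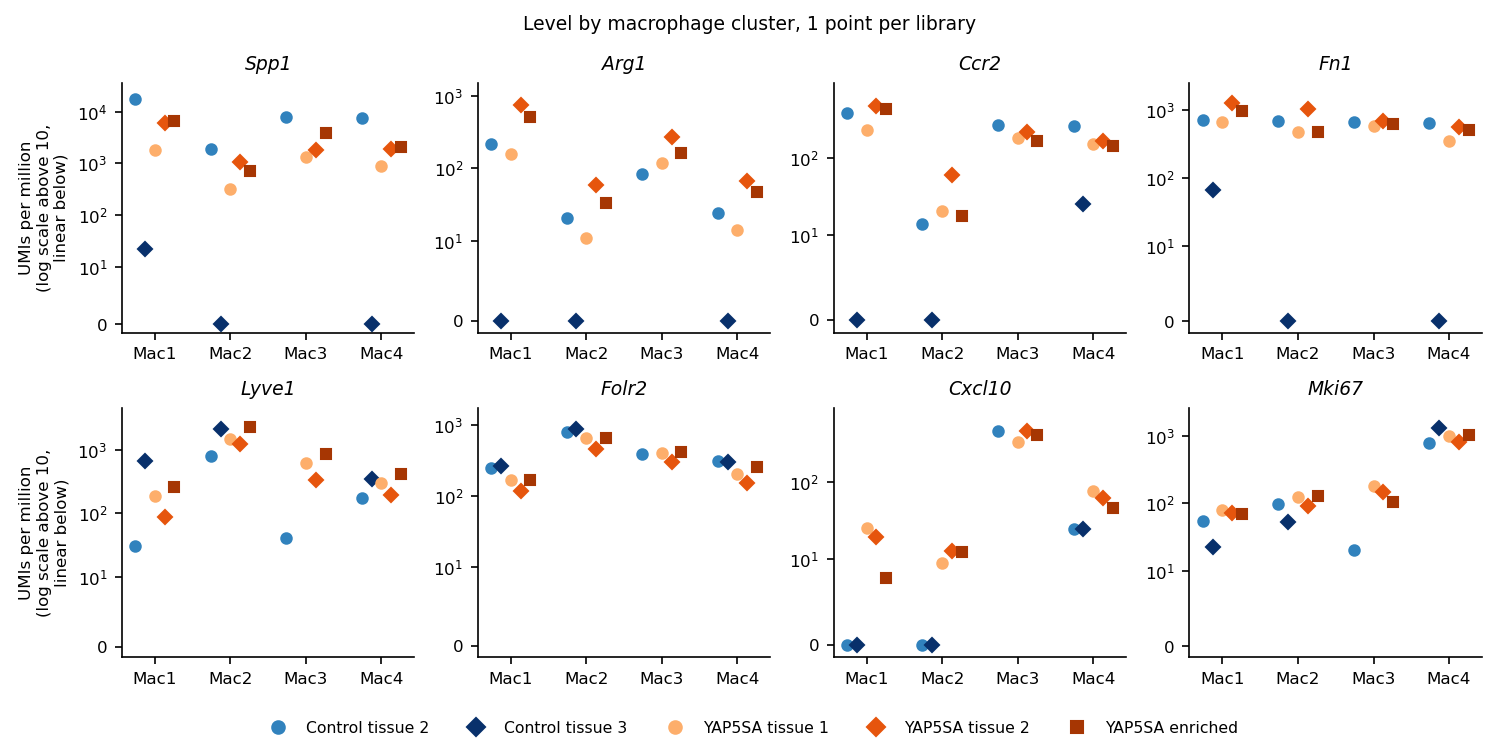
Each point is the level of a gene in one cluster of one library, in CPM on an axis that is logarithmic above 10 and linear below. Spp1, Arg1 and Ccr2 are higher in Mac1 than in Mac2 outside Control tissue 3 (dark blue diamonds, 0 UMIs of Arg1 and Ccr2), Lyve1 and Folr2 are lower, Cxcl10 is highest in Mac3 (327 to 459) and Mki67 in Mac4 (789 to 1292).

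Cell cycle transcripts were frequent in Mac1, though far below Mac4. At 750 UMIs per cell, 56.0% and 47.6% of Mac1 cells in Control tissue 2 and 3 had at least 2 UMIs of 94 S and G2/M genes, against 67.0%, 65.9% and 66.8% in YAP5SA tissue 1, tissue 2 and enriched. The YAP5SA libraries were all higher, by 14.8 percentage points in the mean (exact permutation p = 0.167, the smallest possible). Without thinning the shares were 65.6% and 57.1%, and 78.8%, 80.5% and 76.6%. In CM1 to CM3 the share at 750 UMIs ranged from 6.33% to 18.6% in Control and from 17.6% to 42.3% in YAP5SA. The cardiomyocytes' own cell cycle transcripts and free RNA cannot be told apart in these shares. They are therefore no measure of free RNA, and its part in Mac1 was not tested. In Mac2 the shares were 60.2% and 36.9%, and 61.0%, 62.3% and 68.1%, and in Mac4 they were 99.4% to 100%. By gene, none of the 42 S phase genes and none of the 38 G2/M genes tested in Mac1 passed the genotype test below. Of all features tested, 1.5% passed it. Levels in all YAP5SA libraries exceeded both Control levels for 23 S phase genes and 16 G2/M genes, where 25.0% of all features tested did so.

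Between genotypes, 144 of 9570 features tested in Mac1 (1.5%) differed at an adjusted p under 0.05 in edgeR's quasi-likelihood test with Benjamini-Hochberg adjustment, 68 higher (0.711%) and 76 lower (0.794%) in YAP5SA. The model has a term for preparation, so the enriched library sets that term and the estimate rests on 2 Control and 2 YAP5SA tissue libraries. The count depended on single libraries: it was 549 without Control tissue 2, 404 without Control tissue 3, 3 without YAP5SA tissue 1, 0 without YAP5SA tissue 2 and 0 without YAP5SA enriched, which is the tissue libraries alone (665 features at an unadjusted p under 0.05). The comparison without Control tissue 3 is also the one within a single gene annotation. DESeq2 called 11 of 3076. The median log2 fold change over all features tested was 0.12, and changes are to be read against it.

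Apoe, the lipid carrier apolipoprotein E, had the largest fall in CPM of the genes named by the rule. It was at 11703 and 11698 CPM in Control tissue 2 and 3, and at 1483, 1315 and 1995 CPM in YAP5SA tissue 1, tissue 2 and enriched. The Control values nearly coincided and lay well above all 3 YAP5SA values. The log2 fold change was -3.08 ± 0.71 (SE; edgeR, adjusted p = 0.00299), and it stayed past the threshold without either Control library and in DESeq2. With the tissue libraries alone it was -3.18 and no longer passed (adjusted p = 0.0852), nor did it with equal numbers of cells (adjusted p = 0.236). Among Mac1 cells 95.7% and 97.6% had an Apoe UMI at 750 UMIs in Control, against 44.4%, 38.6% and 49.5% in YAP5SA, and 6.15% to 9.04% of cardiomyocytes did. Pltp, the phospholipid transfer protein, fell as well, from 147 and 625 CPM in the Control libraries to 77.9, 70.9 and 57.1 CPM in the YAP5SA ones (-2.08 ± 0.46, adjusted p = 0.00124). Without Control tissue 3 the fall of Pltp was smaller (-1.07, adjusted p = 0.0468), and DESeq2 did not call it (adjusted p = 0.186). These were the 2 of 17 cholesterol-handling genes that changed, where 1.5% of all features tested were called, and the list's median was -0.12.

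Immediate early genes, which encode transcription factors and feedback regulators that cells switch on within minutes of a stimulus, formed the list with the most falling members. Of 20 tested, 7 fell and 0 rose, where 0.794% of all features tested were called lower. Levels of 13 were lower in every YAP5SA library than in both Control libraries (10.3% of all features were), and the median was -1.60. Atf3, a stress-induced repressor, was at 317 and 1205 CPM in Control tissue 2 and 3 and at 53.5, 50.9 and 62.3 CPM in YAP5SA. Control tissue 3 was the highest, and the YAP5SA values were close together (log2 fold change -3.74 ± 0.56, adjusted p = 3.65e-08). Fosb, a subunit of the AP-1 factor, was at 143 and 647 CPM in Control and at 37.2, 39.0 and 32.5 CPM in YAP5SA (-2.99 ± 0.44, adjusted p = 1.75e-08). Nr4a1, a nuclear receptor, was at 232 and 491 CPM against 75.6, 80.1 and 38.9 CPM (-2.06 ± 0.45, adjusted p = 0.00118). For all 3 the genotypes did not overlap. Without Control tissue 3 the log2 fold changes of Atf3, Fosb and Nr4a1 were -2.69, -1.98 and -1.65, and without Control tissue 2 they were -4.51, -4.06 and -2.63.

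Btg2, an antiproliferative regulator, was at 444 and 1496 CPM in Control and 221, 155 and 148 CPM in YAP5SA (-2.29 ± 0.58, adjusted p = 0.00901). Egr1, a zinc finger factor, was at 301 and 2545 CPM against 116, 229 and 108 CPM (-2.92 ± 0.61, adjusted p = 0.000465), and Jun, the partner of Fos proteins, at 278 and 1607 CPM against 275, 167 and 238 CPM (-2.0 ± 0.58, adjusted p = 0.0417). Without Control tissue 3 the value of Btg2 was -1.34, and Egr1 and Jun were no longer called (adjusted p = 0.074 and 0.545). Klf2, the seventh, overlapped between genotypes (290 and 1183 CPM against 156, 160 and 358 CPM, adjusted p = 0.0219). Summed over the list, Mac1 had 9523 and 22882 CPM in Control and 4663, 4998 and 3801 CPM in YAP5SA. The lower sum in YAP5SA was not particular to Mac1. Mac2 had 10714 and 23770 CPM against 6213, 5853 and 4239 CPM, and Mac4 8298 and 14039 CPM against 4592, 4305 and 3679 CPM. Mac3 had 9226 CPM in Control tissue 2 against 5966, 4642 and 3195 CPM. The library with the highest sum, Control tissue 3, was also the one with the highest mitochondrial share and the most fibroblast and cardiomyocyte transcripts, and the part of these in the result was not tested.

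The promoters of 3 of the falling immediate early genes that hold a short sequence are shown. They were chosen for display with this match known, so that all 3 match is not a result. Jun, also called, has a window without a match and is not shown. The letters searched were TGACG, the core of the cAMP response element that CREB and ATF factors bind, and CGTCA, the same on the other strand. The windows are from RefSeq on GRCm38.p6, 250 bases before to 50 after the gene start, 5′ to 3′ in the direction of the gene, with matches in capitals. They are Fosb (chr7:19309996-19310295, minus strand, 1 match), Nr4a1 (chr15:101266596-101266895, plus strand, 4 matches) and Btg2 (chr1:134079106-134079405, minus strand, 2 overlapping matches).
Fosb: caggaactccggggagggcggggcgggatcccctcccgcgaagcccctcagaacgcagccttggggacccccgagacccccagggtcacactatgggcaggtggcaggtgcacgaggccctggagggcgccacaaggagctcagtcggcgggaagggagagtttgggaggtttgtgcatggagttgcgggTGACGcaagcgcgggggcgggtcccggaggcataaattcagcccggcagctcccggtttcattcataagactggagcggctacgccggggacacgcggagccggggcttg
Nr4a1: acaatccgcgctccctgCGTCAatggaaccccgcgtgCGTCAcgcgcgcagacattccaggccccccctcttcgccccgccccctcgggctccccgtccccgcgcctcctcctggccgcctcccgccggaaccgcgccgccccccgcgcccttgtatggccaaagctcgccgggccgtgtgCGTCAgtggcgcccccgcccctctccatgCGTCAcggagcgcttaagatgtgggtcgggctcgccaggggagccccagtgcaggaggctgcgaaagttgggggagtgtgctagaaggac
Btg2: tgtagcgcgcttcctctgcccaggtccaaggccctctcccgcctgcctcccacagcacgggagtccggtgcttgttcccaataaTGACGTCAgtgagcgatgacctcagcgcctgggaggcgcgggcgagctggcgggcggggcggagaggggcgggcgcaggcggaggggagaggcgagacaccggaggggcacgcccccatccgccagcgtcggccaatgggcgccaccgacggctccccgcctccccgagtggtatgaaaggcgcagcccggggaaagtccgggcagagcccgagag
The letters occur in 20.8% of 32851 such windows, in 10 of the 18 immediate early genes that have one, in 5 of the 6 called genes among these (Fosb, Klf2, Atf3, Nr4a1 and Btg2, not Jun) and in 5 of the 12 not called. A match is a description of the sequence and not a binding site.

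Secreted factors were among the genes that fell. Ccl8, a chemokine of resident macrophages, was at 294 and 67.0 CPM in Control tissue 2 and 3 (76 and 3 UMIs) and at 10.5, 37.9 and 13 CPM in YAP5SA (-3.13 ± 0.42, adjusted p = 8.01e-10). It was not called without Control tissue 2 (adjusted p = 0.51). Cxcl1, a neutrophil-attracting chemokine, was at 228 and 1384 CPM against 129, 153 and 77.9 CPM (-2.37 ± 0.56, adjusted p = 0.00394), and was not called without Control tissue 3 (adjusted p = 0.169). These were the 2 of 20 chemokine and receptor genes that changed, where 1.5% of all features tested were called, and the list's median was 0.03.

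Of 15 growth factors, 2 fell, where 0.794% of all features tested were called lower, and the median was -1.28. Igf1, insulin-like growth factor 1, was at 220 and 201 CPM in Control and at 72.1, 47.1 and 74.0 CPM in YAP5SA, without overlap (-1.91 ± 0.42, adjusted p = 0.00123). It lay below the free RNA limit. Gdf15, a stress-induced member of the TGF-beta family, was at 42.5 and 22.3 CPM against 12.8, 2.71 and 15.6 CPM (-2.60 ± 0.76, adjusted p = 0.0446), also below that limit and not called without Control tissue 2 (adjusted p = 0.632). Csf1, the ligand of Csf1r, was at 3.86 and 0 CPM (1 and 0 UMIs) against 23.3, 15.7 and 16.9 CPM and did not pass (adjusted p = 0.549). It also lay below the free RNA limit, with a mean of 341 CPM in the cardiomyocyte cluster YAP5SAcm.

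Resident, antigen-presenting and monocyte-derived genes had some called members, where 0.794% of all features tested were called lower and 0.711% higher. Of 20 resident macrophage genes 3 fell (Ccl8, Igf1 and Sepp1) and the median was -0.55. Sepp1, the selenium carrier selenoprotein P, was at 966 and 2701 CPM in Control and at 391, 351 and 447 CPM in YAP5SA (-2.26 ± 0.61, adjusted p = 0.0206, and -1.47 without Control tissue 3). Rcbtb2, also among the 12 largest falls, was at 96.6 and 67.0 CPM (25 and 3 UMIs) against 20.9, 23.3 and 28.6 CPM (-2.05 ± 0.51, adjusted p = 0.00666), and was not called without Control tissue 2 (adjusted p = 0.436). Of 6 MHC class II genes H2-Aa fell, from 128 and 335 CPM to 11.6, 27.1 and 11.7 CPM (-3.15 ± 0.47, adjusted p = 2.7e-08). It lay below the free RNA limit, with 3740 to 5178 CPM in the monocyte cluster Mo. Of 16 monocyte-derived genes Plac8, a monocyte gene, rose, from 23.2 and 0 CPM to 64.0, 130 and 45.4 CPM (2.31 ± 0.64, adjusted p = 0.0254), and the list's median was 0.70. The summed level of the monocyte-derived list did not separate the genotypes (26007 and 8617 CPM in Control, 15399, 17059 and 18449 CPM in YAP5SA), and neither did that of the resident list (9113 and 15694 CPM against 8341, 7382 and 9256 CPM).

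**Figure D3:**
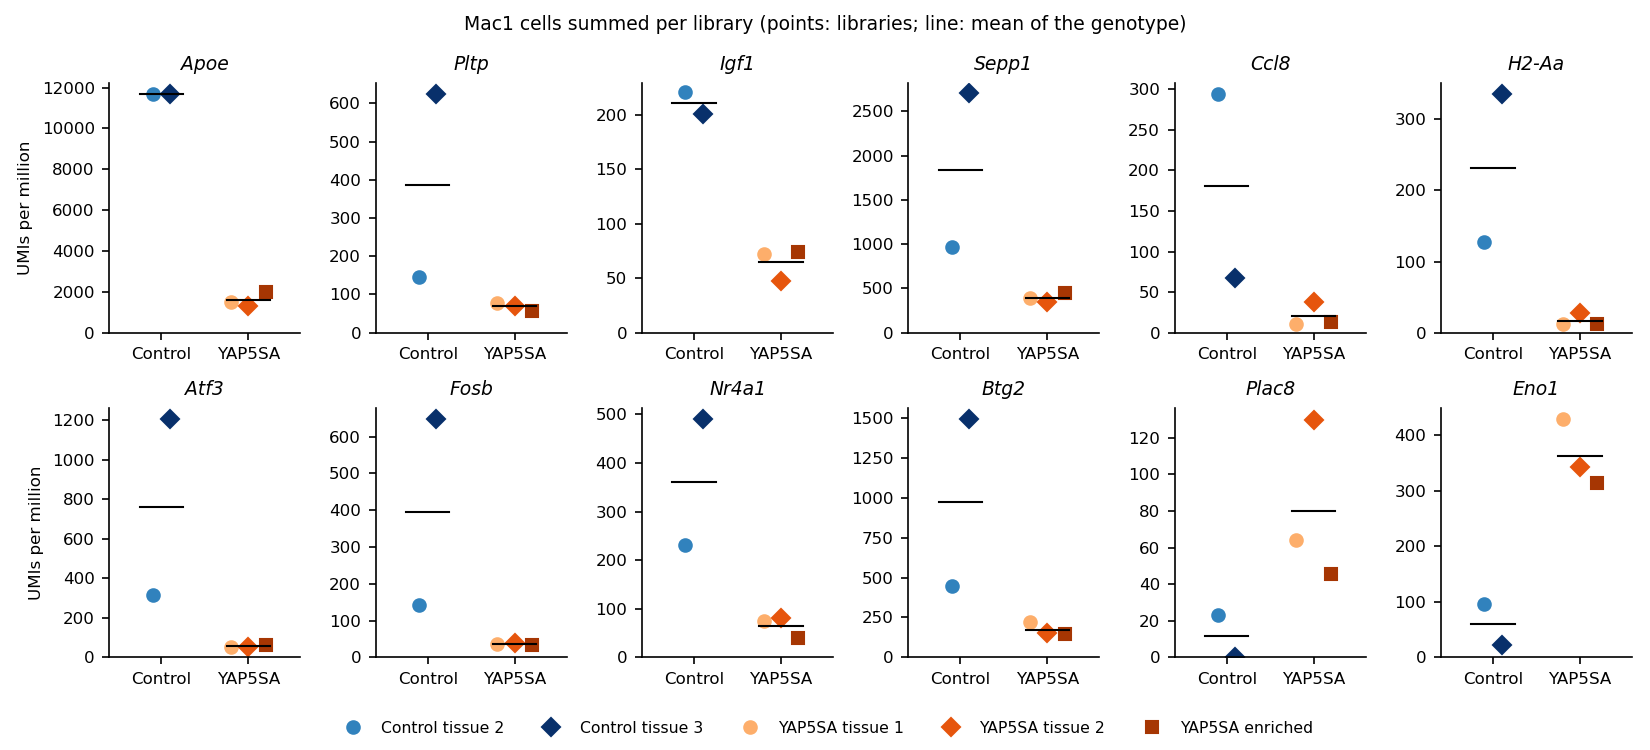
Points are the levels (CPM, on the Mac1 total) of 12 genes in each of the 5 libraries, and lines the mean of 2 Control or 3 YAP5SA libraries; each axis starts at 0. Apoe stands at 11703 and 11698 in Control and at 1315 to 1995 in YAP5SA, and for Atf3, Fosb and Btg2 Control tissue 3 (dark blue diamond) is the highest point.

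Repair and lipid-associated genes had 5 called members of 20: Apoe, Gpnmb, Syngr1, Fabp5 and Mmp12. All were lower in YAP5SA, where 0.794% of all features tested were called lower, and the list's median was -0.65. Its summed level in Mac1 overlapped between genotypes (41717 and 15805 CPM in Control, 9709, 15409 and 16251 CPM in YAP5SA). Apart from Apoe, the called members were highest in Control tissue 2. Gpnmb, a glycoprotein of lipid-laden macrophages, was at 158 CPM there, at 0 in Control tissue 3, and at 1.16, 1.62 and 11.7 CPM in YAP5SA (-6.24 ± 0.66, adjusted p = 7.96e-17). Fabp5, a fatty acid binding protein, was at 444 CPM there and at 44.6 CPM in Control tissue 3, against 12.8, 44.9 and 116 CPM in YAP5SA (adjusted p = 3.65e-08, below the free RNA limit). Both overlapped between genotypes, as did Mmp12, whose fold change turned positive without Control tissue 2. In all, 30 of the 76 features called lower overlapped between genotypes. Of these, 18 had their highest level in Control tissue 2 and 10 in Control tissue 3. Rps13-Snord14a and Rpl9 were called lower though YAP5SA enriched had their highest levels (910 and 1013 CPM). Both were also high in Control tissue 3 (491 and 536 CPM), and at 34.8 CPM or lower in the other 3 libraries, which differ from them in gene annotation. In all, 40 of the 76 lay below the free RNA limit, where leaving out all features below it reduced those tested from 9570 to 8476. Among the features called lower were 6 of the 16 cardiomyocyte markers (Actc1, Fabp3, Myl2, Myl3, Pln and Tnni3) and 2 of 10 fibroblast markers tested (Col1a2 and Gsn).

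The features that rose were mostly pseudogenes. Of 68, 51 are annotated as pseudogenes. Copies nearly identical to a parent gene share its reads, so the values of pseudogenes are uncertain. Of the 68, 12 were at 0 in both Control libraries and 42 were at 0 in Control tissue 3. Levels under 67.0 CPM could not be told from 0 in that library, so a 0 there says little. Rps19-ps6, a processed copy of a ribosomal protein gene, was at 15.5 and 0 CPM in Control and at 235, 198 and 132 CPM in YAP5SA (3.99 ± 0.72, adjusted p = 1.57e-05). It showed the same order in the other clusters, for example 20.8 and 39.8 CPM against 201, 140 and 90.2 CPM in Mac2. Pseudogenes as a class held 2.80% and 0.987% of Mac1 UMIs in Control and 4.80%, 4.67% and 2.86% in YAP5SA. Without pseudogenes, an alternative added after seeing the data, 8854 features were tested in place of 9570, so most tested features are not pseudogenes. Of these 8854, 79 were called, 16 higher and 63 lower.

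The other 10 of the 12 largest rises were Gm5239, Gm14046, Gm5560, Dynlt1-ps1, Gm15483, Rpl27-ps2, Gm8203, Gm10177 and Gm13268, all pseudogenes, and RP23-402P24.7, which has no gene type here. With them stood Plp2, a small membrane protein, at 0 in both Control libraries and at 55.8, 57.4 and 23.4 CPM in YAP5SA (adjusted p = 0.00123). Against a floor of 3 UMIs over the Control libraries it was at least 5.00-fold higher. Eno1, a glycolytic enzyme, rose from 96.6 and 22.3 CPM to 429, 343 and 314 CPM (2.3 ± 0.61, adjusted p = 0.0163), the 1 of 17 glycolysis genes called. Of all features tested, 0.711% were called higher. Among other protein-coding genes chosen after their values were seen, Ubb, a ubiquitin gene, was at 77.3 and 67.0 CPM against 359, 343 and 247 CPM, and Sla, an adaptor protein, at 30.9 and 22.3 CPM against 95.4, 204 and 94.8 CPM (adjusted p = 0.0267 and 0.00666).

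Many programmes had no called member in Mac1, where 1.5% of all features tested were called. At that share, no call in lists of this size is not a result about the lists. None passed of 15 complement, 16 CSF1 receptor axis, 19 efferocytosis and scavenger receptor, 25 lysosomal, 15 inflammatory, 25 interferon, 45 oxidative phosphorylation, 11 iron and heme, 15 antioxidant and 15 unfolded protein response genes. Their medians lay between -0.51 (inflammatory, 5 at an unadjusted p under 0.05) and 0.34 (interferon, 3 at that p). Among the 2 members of each list with the smallest p, Serping1, a complement inhibitor, was at 268 CPM in Control tissue 3 and at 3.89 to 12.4 CPM in the other libraries (adjusted p = 0.0567). Atp6v0d2, a subunit of the lysosomal proton pump, was at 38.6 CPM in Control tissue 2 and at 0 to 7.79 CPM elsewhere (adjusted p = 0.108). Cxcl10 was at 0 in both Control libraries and at 25.6, 19.5 and 7.79 CPM in YAP5SA (adjusted p = 0.118, at least 1.86-fold higher against the floor of 3 UMIs). Nfkbiz, a regulator of NF-kappaB, was at 139 and 1005 CPM against 152, 174 and 113 CPM (adjusted p = 0.109). Each of these was high in 1 Control library alone, except Cxcl10, which had few UMIs. C3ar1, the receptor of the complement fragment C3a, was at 417 and 246 CPM against 316, 264 and 332 CPM and did not pass (adjusted p = 0.969). Of 20 matrix and protease genes Mmp12 fell alone (median 0.23). Of 15 YAP target genes Cyr61, a matricellular protein, fell alone (112 and 826 CPM against 133, 74.7 and 38.9 CPM, adjusted p = 0.013, below the free RNA limit and not called without Control tissue 3, adjusted p = 0.837), and the median was 0.24.

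**Figure D4:**
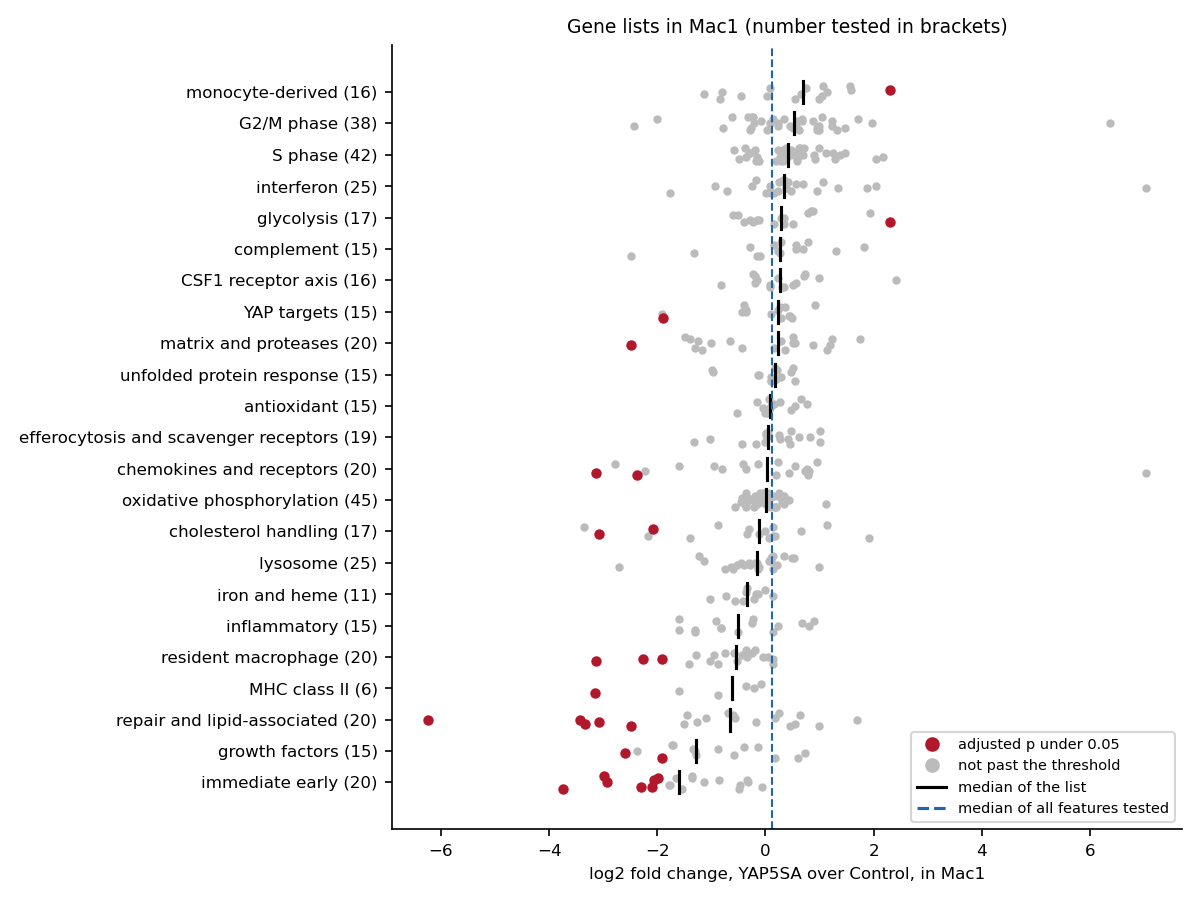
Each point is the log2 fold change of a gene in Mac1 (YAP5SA over Control) in one of 23 lists, red where the adjusted p is under 0.05; black bars are list medians and the dashed line is the median of all 9570 features, 0.12. Immediate early genes have 7 red points and a median of -1.60, and the monocyte-derived list has the highest median, 0.70.

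The genotype effect in Mac1 was compared with that in the other macrophages by an interaction term, with the library as a block. It differed for 5 of 11373 features against Mac2 (0.044%), 4 against Mac3 (0.0352%) and 4 against Mac4 (0.0352%), and in all of them the change in Mac1 was the more negative. The median difference over all 11373 features was -0.04 against Mac2, -0.48 against Mac3 and -0.05 against Mac4. The contrast with Mac3 was thus shifted towards negative values as a whole, and its differences are to be read against that median. Wfdc17, a small secreted protein of activated macrophages, was at 1612 and 1139 CPM in Mac1 of Control and at 300, 422 and 473 CPM in YAP5SA. In Mac2 it was at 3793 and 3130 CPM against 1810, 2338 and 2293 CPM. It was lower in YAP5SA in both clusters without overlap, and the difference of the log2 fold changes was -1.19 ± 0.19 (SE; edgeR, adjusted p = 1.41e-06) against Mac2 and -1.51 ± 0.26 (adjusted p = 4.59e-05) against Mac3.

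The other 4 genes of the contrast with Mac2 were 2 lysosomal proteases, a lipid droplet protein and a lectin. Ctsd, cathepsin D, was at 2906 and 290 CPM in Mac1 of Control tissue 2 and 3 and at 727, 731 and 924 CPM in YAP5SA, and in Mac2 at 2229 and 411 CPM against 1170, 1504 and 1186 CPM. The Control libraries lay on either side of the YAP5SA range in both clusters, and the difference was -1.24 ± 0.20 (adjusted p = 1.41e-06). It was -1.31 ± 0.25 for Ctsl, cathepsin L, -1.24 ± 0.29 for Plin2, perilipin 2, and -0.88 ± 0.21 for Lgals3, galectin 3 (adjusted p = 0.000911, 0.0497 and 0.0497). Ccl8 fell more in Mac1 than in Mac3 (-2.33 ± 0.40, adjusted p = 4.59e-05) and than in Mac4 (-1.90 ± 0.41, adjusted p = 0.0137), with 3 and 0 UMIs in Mac1 and Mac4 of Control tissue 3. Atf3 fell more in Mac1 than in Mac4, where it was at 224 and 249 CPM against 69.2, 58.5 and 64.9 CPM (-1.43 ± 0.32, adjusted p = 0.0195). Ly6c1 against Mac3 and Retnla against Mac4, next in order of p, did not pass (adjusted p = 0.0516 and 0.0537). The counts were 0 in all 3 contrasts without YAP5SA tissue 1 or YAP5SA tissue 2; against Mac2 they were 16 and 17 without Control tissue 2 and 3, against Mac3 15 without Control tissue 3, and against Mac4 14 without Control tissue 2.

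Apoe was low in YAP5SA in every macrophage cluster and in monocytes. Its level in Mac2 was 8146 and 14153 CPM in Control and 1896, 1772 and 2177 CPM in YAP5SA. In Mac4 it was 6919 and 6460 CPM against 1072, 661 and 1105 CPM, and in Mo 7901 and 6278 CPM against 915, 713 and 822 CPM. No difference between its genotype effect in Mac1 and in Mac2, Mac3 or Mac4 was detected (adjusted p = 0.991, 0.927 and 1.0).

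**Figure D5:**
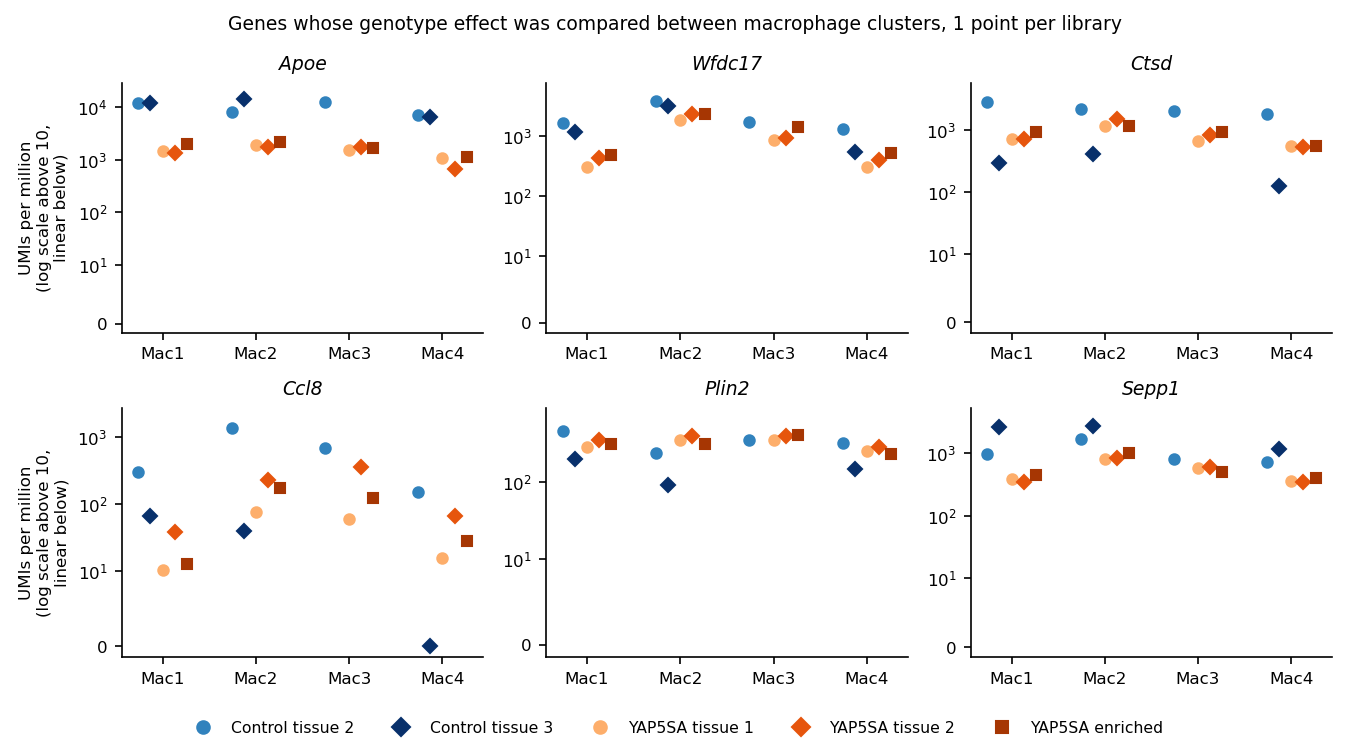
Each point is the level of a gene in one macrophage cluster of one library, in CPM on an axis that is logarithmic above 10 and linear below. Apoe is lower in the YAP5SA libraries (orange to brown) in all 4 clusters, Wfdc17 in YAP5SA is at 300 to 473 in Mac1 and at 1810 to 2338 in Mac2, and for Ctsd Control tissue 2 and 3 (blue) lie on either side of the YAP5SA points.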

How the data were processed

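The deposited table holds UMI counts of 22281 features in 21706 cells, made by the authors from Drop-seq libraries; Picard, STAR and Seurat 2.3.4 are named in the submitters' processing notes, and genome build, annotation and filters are not given in the sources used here. The authors also deposited each cell's library, cluster and mitochondrial fraction. Doublets were not removed here, and no cell was filtered. The scaled table was not used. Joined names of overlapping genes (857) were merged with their parts, leaving 21204 features, of which 1208 had counts under only one of the annotations. Counts were summed per library and cluster where there were at least 10 cells.

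Sums were tested with edgeR 4.0.16 (R 4.3.3, quasi-likelihood, TMM scaling, filterByExpr), with terms for preparation and genotype and 2 residual degrees of freedom. The spread was estimated with information shared across features, so SEs and p-values are not those of each gene's own spread. Gpnmb, at 158 and 0 CPM in the Control libraries, had an adjusted p of 7.96e-17 in this test. Differences between clusters in the genotype effect were tested in 1 model with a term for each library. Shares were tested by exact permutation in Python 3.11.15. The scripts were tested on simulated data. Alternatives included DESeq2 1.42.0.

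Genes named are the 12 largest and 12 smallest fold changes among features that passed an adjusted p of 0.05, averaged 5 or more on the log2 CPM scale and did not overlap between genotypes (1 and 21 features below the free RNA limit left out), the 2 smallest p of each of 23 pathway lists (those that did not pass are given in part), the 5 smallest p of each contrast between clusters, fixed genes, and, between clusters, the 12 most extreme features. The members and lists were chosen with earlier results of these data known. Intervals and floors cover counting error only.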

Additional observations from a re-analysis of the deposited data

Results flagged for a closer look

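The genotype effect differed between Mac1 and another macrophage cluster, by the interaction term of edgeR's quasi-likelihood fit, for the genes below; each value is the log2 fold change (YAP5SA over Control) in Mac1 minus that in the other cluster. Against Mac2 it was -1.19 for Wfdc17, -1.24 for Ctsd, -1.31 for Ctsl, -1.24 for Plin2 and -0.88 for Lgals3. Against Mac3, where the median over all features was -0.48, it was -1.51 for Wfdc17, -2.33 for Ccl8, -1.48 for Sepp1 and -2.52 for Fabp5. Fabp5 lay below the free RNA limit. Against Mac4 the value was -1.70 for Dcn, -1.18 for Gsn, -1.90 for Ccl8 and -1.43 for Atf3.

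Dcn and Gsn are fibroblast genes. Dcn was at 34.8 and 5313 CPM in Mac1 of Control tissue 2 and 3 and at 57.1 to 121 CPM in YAP5SA, so its value rests on Control tissue 3, where the fibroblast markers summed to 11207 CPM. Gsn was at 186 and 3728 CPM against 160 to 214 CPM, with the same library high. Mac3 of Control tissue 3 was not used, so in the contrasts with Mac3 the Control level of Mac3 comes from Control tissue 2 alone.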

How the results depend on the processing

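The 144 features called between genotypes became 6 without the preparation term, 0 with the tissue libraries alone, 0 of 1346 with equal numbers of cells, 11 in DESeq2 and, in an alternative chosen after seeing the data, 79 without pseudogenes. Leaving out 1 library at a time gave 0 to 549. Without mitochondrially encoded genes, also chosen after seeing the data, the count was 144, and it was 138 to 170 under the other scalings, with no filter on low counts, with at least 30 cells per sum and with joined names kept apart. Without features below the free RNA limit it was 115, with 68 higher and 47 lower in place of 76. Only 7264 features were tested with the tissue libraries alone; the smallest adjusted p there was 0.0510. Of the values of called genes under alternatives, 300 stayed past the threshold, 205 did not, and 1 reversed.

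The count of genes whose effect differed from Mac2 (5) was 8 with RLE scaling, 11 with library totals alone, 8 without the preparation term, and 0 to 17 with 1 library left out. The count against Mac3 (4) was 0 to 15 and that against Mac4 (4) 0 to 14 with 1 library left out, and the latter was 2 with library totals alone. With RLE scaling and with library totals alone, 3 genes differed from Mac3, and for 1 of them the change in Mac1 was the more positive. The median difference from Mac3 over all features was then -0.20 and -0.17. The difference in the share of Mac1 among macrophages ranged from -6.20 to 9.02 points with 1 library left out.

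Single genes reversed with 1 library left out, and some of them are given here. The log2 fold change in Mac1 ranged from -2.08 to 1.34 for Ctsd and from -3.69 to 5.89 for Mmp12. For the lineage markers Cd68 and Fcer1g it ranged from -1.22 to 1.16 and from -0.63 to 1.15. The difference from Mac2 ranged from -0.96 to 2.79 for Lgals3, and that from Mac4 from -2.0 to 0.71 for Dcn. Apart from the construction of each alternative (fewer libraries, fewer features or fewer cells), the cause was not tested.

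No paired analysis was possible because the deposited names of the YAP5SA tissue libraries carry numbers that do not match those of the labels. At 42 Mac1 cells in Control tissue 3, levels under 67.0 CPM (3 UMIs) could not be told from 0 there. Where a Control library is left out, the other one is assumed to vary like the YAP5SA libraries.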
